A study of Mus musculus with 2 samples.

Results

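The 7 genes of the muscle fibre's stretch and stress response (7 of 32285 gene identifiers in the deposited count files) were followed through single-cell RNA sequencing of the mouse plantaris, a fast muscle of the lower hind limb. The genes were Csrp3, Ankrd1, Ankrd2, Ankrd23, Fhl1, Cryab and Hspb7. They were selected on measured values of these same libraries, among them the difference between operated and control fibres described here. The values below are therefore descriptions, and their direction is not independent evidence. Both groups came from the same 5 male C57BL/6 mice, 12 weeks old and without a transgene in the labels. On one side the plantaris was subjected to tenotomy, the cutting of a tendon, and on the opposite side it served as sham control. The muscles were taken 4 days later. Each group's 5 were combined, taken apart with collagenase, sorted for living mononuclear cells by Calcein AM and propidium iodide, and run on a droplet system that counts transcripts as unique molecular identifiers (UMIs). Each group was 1 library, so a difference has no replicate check: no test between animals was possible, the intervals cover counting error only, and group and library cannot be told apart. The sources used here do not name the tendon, nor whether the plantaris was loaded or unloaded by the operation.

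A muscle fibre carries its force through sarcomeres, whose ends are anchored at Z-discs and whose length is followed by the giant elastic protein titin. Csrp3 (muscle LIM protein) sits at the Z-disc. Ankrd1, Ankrd2 and Ankrd23 form the muscle ankyrin repeat protein family, which binds the N2A segment of titin in the I-band and can also be found in the nucleus. Fhl1 is a LIM-only protein that binds the N2B segment of titin. Cryab (alpha B-crystallin) and Hspb7 are small heat shock proteins of striated muscle; the first protects titin and desmin, and the second binds filamin C. In skeletal and cardiac muscle these genes are textbook examples of transcripts that respond to stretch, overload, injury or denervation.

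The 3 ankyrin repeat genes are shown with the sequence before a transcription start because they are relatives whose levels went different ways in the fibres. The sequences are from RefSeq on GRCm38.p6, and each holds the 150 bases up to the start, read 5′ to 3′ on the gene's strand. Capitals mark motif matches: M-CAT (CATTCC, on either strand, so GGAATG on the opposite one), a heat shock element (GAANNTTC) and a TATA box (TATAAA). In the Ankrd1 sequence an M-CAT match and a heat shock match overlap by 1 base. The regions are chr19:36119845-36119994 (minus strand) for Ankrd1, chr19:42035877-42036026 (plus strand) for Ankrd2 and chr1:36535740-36535889 (minus strand) for Ankrd23, which has a second listed start that is not shown.
Ankrd1: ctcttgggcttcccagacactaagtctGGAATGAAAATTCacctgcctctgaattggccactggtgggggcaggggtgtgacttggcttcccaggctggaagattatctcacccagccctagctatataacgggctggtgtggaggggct
Ankrd2: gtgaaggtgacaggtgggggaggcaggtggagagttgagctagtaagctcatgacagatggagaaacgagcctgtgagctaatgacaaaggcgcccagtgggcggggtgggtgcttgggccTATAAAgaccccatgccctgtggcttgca
Ankrd23: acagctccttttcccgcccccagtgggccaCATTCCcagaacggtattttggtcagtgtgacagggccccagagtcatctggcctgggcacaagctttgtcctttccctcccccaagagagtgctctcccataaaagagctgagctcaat
In the 250 bases before a start, Ankrd1 held M-CAT at positions -123 and -210 and a heat shock element at -118, counted from the start. Ankrd2 held a TATA box at -29. The shown Ankrd23 promoter held M-CAT at -120. Among 32851 listed promoters, searched over the same length and on both strands, 12.6% held M-CAT, 12.4% the TATA box and 6.69% the heat shock element, so none of these matches is rare. Of the other members, RefSeq promoters of Csrp3, Fhl1 and Hspb7 were searched as well. One Fhl1 promoter held a serum response (CArG) match, found in 1.47% of promoters, and heat shock matches occurred in 1 promoter each of Csrp3 and Fhl1. The E-box CAGCTG (13.0% of promoters) and a MEF2 site (0.508%) were in none of the 9 member promoters. A match is a description of the letters and not evidence of binding. Cryab was named only.

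The libraries held 8463 barcodes with 47781353 UMIs (sham) and 11950 barcodes with 94556283 UMIs (tenotomy), and 7535 and 10891 barcodes passed the cell filters. The 2 libraries shared 33 barcode sequences among all barcodes. Whole fibres are too long for droplets, and a myofibre barcode here is one in which Acta1, Ckm, Tnnt3 and Mylpf, 4 abundant transcripts of fast fibres, made up at least 5% of the UMIs. There were 51 of them in sham (197802 UMIs, median 2373 a barcode) and 68 in tenotomy (124783 UMIs, median 1347). The 4 genes took a median of 16.7% and 13.0% of their UMIs. The 3 sham barcodes just inside the limit held from 5.43% to 6.84%, with 3 to 23 UMIs of the 7 genes together, and those just outside held 2.53% to 2.79%, with at most 1. In tenotomy the 3 just inside held 5.92% to 7.17%, with 5 to 30 member UMIs, and those just outside held 4.65% to 4.92%. Of these last 3, 2 were muscle stem cell-like cells, with 25 and 144 member UMIs.

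The label fits the markers: all 10 fixed fibre markers were detected in both libraries, although 4 of them made the rule. The 10 muscle stem cell markers summed to 3230.5 CPM (the UMIs of a gene per 1000000 UMIs of the summed barcodes) in sham and 7982 in tenotomy. Of these, 4 and 3 were detected, and Des made up 3175 and 7886 CPM. Pax7 and Myf5 were at 0 in the myofibre barcodes of both libraries, while Myod1 and Myog were detected in tenotomy only. The 6 myocyte markers summed to 91.0 and 176 CPM (1 and 3 detected, in tenotomy Myog, Mymk and Actc1). Malat1, a nuclear RNA, stood at 1380 and 1915 CPM, against 17675 and 10961 in blood endothelial-like cells. RNA of other cells was present and differed between the libraries. The 8 mesenchymal markers summed to 3134 CPM in sham and 272.5 in tenotomy (8 and 4 of 8 detected, with Pdgfra, Dpt, Pi16 and Smoc2 at 0 in tenotomy). The 9 tenocyte markers summed to 809 and 248 CPM (9 and 2 detected). Within that list Tnmd went from 96.1 CPM to 0, while Scx was at 10.1 and 152 CPM on 2 and 19 UMIs. The 8 pericyte or smooth muscle markers summed to 35.4 and 681 CPM (3 and 7 detected, Myh11 at 0 in both). The 9 monocyte or macrophage markers were at 632 and 809 CPM (7 and 8 detected), and all 7 dendritic and all 7 T or natural killer markers were at 0 in both. The part of these cells in the member levels was not tested.

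In the summed myofibre barcodes, 6 of the 7 genes were at least 2-fold higher after tenotomy and none was lower. The 7 genes together took 0.270% of the UMIs of sham fibres and 4.00% of those of tenotomy fibres. A gene counted as measured where its higher library reached 50 CPM and 25 UMIs; all 7 members passed, as did 886 genes in all, of which 12.6% were at least 2-fold higher in tenotomy and 12.3% at least 2-fold lower. Csrp3, Ankrd1, Ankrd2 and Hspb7 passed only through the tenotomy library, where they were high, so the count carries no weight beside that share. The median log2 fold was 5.22 over the 7 members, with Ankrd1 and Ankrd2 at their bounds, and -0.03 over all 886 genes.

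**Figure D1:**
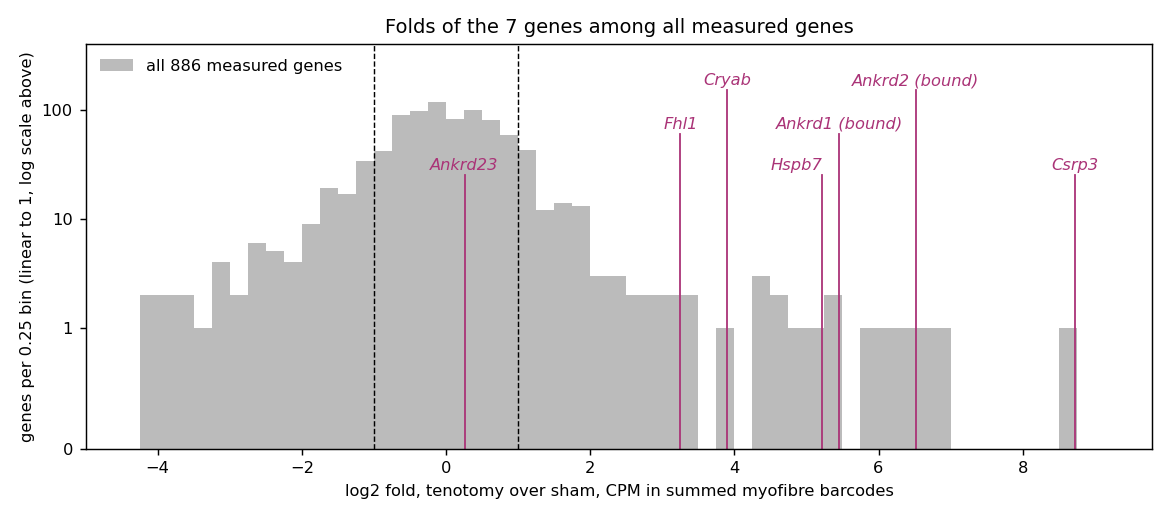
Histogram of log2 folds (x axis, tenotomy over sham, CPM of summed myofibre barcodes) of the 886 measured genes, with the number of genes per bin of 0.25 on the y axis (linear to 1, log scale above) and lines at the 7 genes; dashed lines mark 2-fold, and "bound" marks genes at 0 in sham. Of the 7, 6 lie to the right of the 2-fold line, with Csrp3 at 8.73, and Ankrd23 lies within the bulk at 0.26.

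Csrp3 (ENSMUSG00000030470, mm10 chromosome 7, 48830398 to 48848033, minus strand) had the highest value of the 886 genes when genes at 0 in sham were placed at their lower bounds, whose true folds could be higher. Its 5 UMIs in sham fibres lay in 2 of 51 barcodes, 4 of them in 1 barcode, and gave 25.3 CPM (95% interval 8.21 to 59.0), or 5.19 CPM without that barcode. In tenotomy fibres 1338 UMIs in 38 of 68 barcodes gave 10723 CPM (10156 to 11313), which was 424-fold higher (181 to 1309). Per 10000 UMIs of a barcode the lowest, median and highest values were 0, 0 and 7.95 in sham and 0, 14.3 and 386 in tenotomy. The groups overlapped at and near 0: 30 tenotomy barcodes had no Csrp3 UMI and 2 had some but lay under the highest sham barcode, while the other 36 lay above every sham barcode. One tenotomy barcode, the deepest, carried 447 of the UMIs (33.4%), and without the deepest barcode of each library the fold was 281 (120 to 868).

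Ankrd1 (ENSMUSG00000024803, chromosome 19, 36111961 to 36120099, minus strand) was at 0 in all 51 sham barcodes, where 3 UMIs would have been 15.2 CPM. Tenotomy fibres had 83 UMIs in 16 of 68 barcodes, or 665 CPM (530 to 825), at least 43.9-fold higher with the sham library taken at 3 counts. The deepest barcode held 42.2% of these UMIs. Without the deepest barcode of each library the fold so taken was 25.3, with a lower limit of 19.8. The median tenotomy barcode had none, and the highest had 64.3 per 10000 UMIs.

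Ankrd2 (ENSMUSG00000025172, chromosome 19, 42036000 to 42045110, plus strand) was likewise at 0 in every sham fibre barcode. It reached 173 UMIs in 29 of 68 tenotomy barcodes, or 1386 CPM (1188 to 1609), at least 91.4-fold higher. Its highest barcode had 66.2 per 10000 UMIs, and the median barcode had none. These 2 relatives thus had no UMI in control fibres and were present in a minority of tenotomy barcodes.

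Ankrd23 (ENSMUSG00000067653, chromosome 1, 36530188 to 36536883, minus strand), the third member of the family, did not share this pattern. It had 175 UMIs in 37 of 51 sham barcodes, or 885 CPM (759 to 1026), and 132 UMIs in 49 of 68 tenotomy barcodes, or 1058 CPM (885 to 1254). The fold was 1.20 with an interval of 0.947 to 1.51, which includes no difference, and it ranked 345 of 886. Per 10000 UMIs the lowest, median and highest barcodes were 0, 8.59 and 77.0 in sham and 0, 9.27 and 47.9 in tenotomy, so the groups overlapped over nearly their whole range. With barcodes taken from 2% rather than 5% of UMIs the fold was 0.478, below the 2-fold line on the other side. That limit also took in tenotomy muscle stem cell-like cells, among them cells of 13701 and 20928 UMIs. All tenotomy myofibre barcodes together held 124783. The value is therefore not one of fibres alone, and the part of these cells in it was not tested. A predicted gene, Gm42417, overlaps Ankrd23 on the same strand, and the treatment of such overlaps in the authors' counting was not stated.

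Fhl1 (ENSMUSG00000023092, chromosome X, 56731787 to 56793346, plus strand) was present in control fibres and higher after tenotomy. Its 63 UMIs in 20 of 51 sham barcodes gave 318.5 CPM (245 to 408), and 379 UMIs in 45 of 68 tenotomy barcodes gave 3037 CPM (2739 to 3359), 9.54-fold higher (7.29 to 12.7). The median and highest barcodes had 0 and 22.2 per 10000 UMIs in sham and 16.4 and 135 in tenotomy, so the upper part of the tenotomy range lay above every sham barcode.

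Cryab (ENSMUSG00000032060, chromosome 9, 50751325 to 50756636, plus strand) had 279 UMIs in 39 of 51 sham barcodes, or 1411 CPM (1250 to 1586). In tenotomy it had 2623 UMIs in 62 of 68 barcodes, or 21021 CPM (20224 to 21841), 14.9-fold higher (13.2 to 16.9). Barcodes ran from 0 to 84.5 per 10000 UMIs in sham with a median of 8.55, and from 0 to 785 in tenotomy with a median of 69.4. A single tenotomy barcode held 969 of the UMIs (36.9%), and without the deepest barcode of each library the fold was 10.0 (8.80 to 11.5). The 5′ end of Cryab overlaps Hspb2 on the opposite strand, so a part of either count may belong to the other gene if strand was not used.

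Hspb7 (ENSMUSG00000006221, chromosome 4, 141420779 to 141425311, plus strand) had 11 UMIs in 6 of 51 sham barcodes, or 55.6 CPM (27.8 to 99.5); 1 barcode held 6 of them, and without it the level was 26.2 CPM. Tenotomy fibres had 258 UMIs in 49 of 68 barcodes, or 2068 CPM (1823 to 2336), 37.2-fold higher (20.4 to 75.4). The sham median was 0 with a highest value of 8.77 per 10000 UMIs. The tenotomy median was 14.4, above every sham barcode, and the highest value was 77.6.

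**Figure D2:**
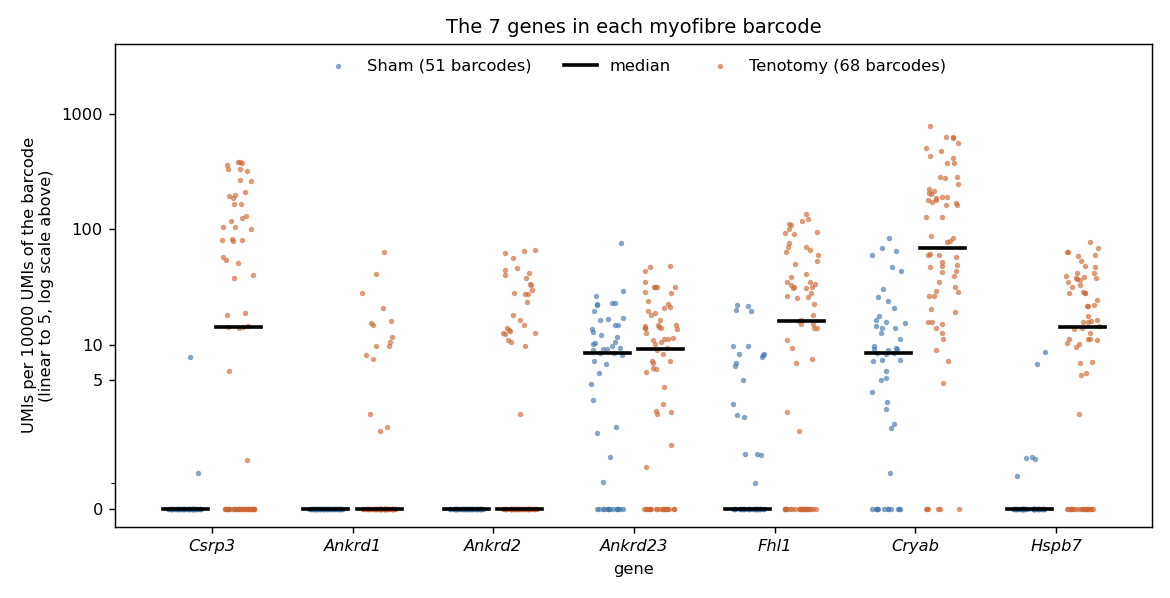
UMIs of each gene per 10000 UMIs of a barcode (y axis, linear to 5, log scale above) in the 51 sham and 68 tenotomy myofibre barcodes; each point is 1 barcode and bars are medians. For Csrp3, Ankrd1, Ankrd2 and Hspb7 nearly all sham points lie at 0 while tenotomy points spread upwards, and for Ankrd23 the 2 libraries cover about the same range.

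Barcodes are not replicates, and they differed in depth, so each was thinned to 500 UMIs to describe how the genes were spread over them. At that depth 40 of 68 tenotomy barcodes (58.8%, 95% Clopper-Pearson interval 46.2 to 70.6) showed 3 or more of the 7 genes, against 0 of 51 in sham (upper bound 6.98%). No member was seen in 3 tenotomy and 16 sham barcodes. Csrp3 was seen in 36 of the 68 tenotomy barcodes. It was seen in all 12 thinned barcodes with Ankrd1, in all 22 with Ankrd2, in 31 of 39 with Fhl1 and in 27 of 36 with Hspb7. Among the 32 with Ankrd23, 15 showed Csrp3. In the 12 barcodes with Ankrd1, Ankrd2 was seen in 10 and Ankrd23 in 3.

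The leading myosin gene of the barcodes, a rough mark of fibre type, also differed between the libraries, and the member levels moved with it. Of the myosin heavy chain genes, Myh4 marks the fastest fibres, Myh1 the next and Myh2 the fast oxidative ones. Each barcode was described by the one of them with most UMIs, with no minimum. Over all myofibre barcodes Myh4, Myh1 and Myh2 had 622, 72 and 0 UMIs in sham and 289, 78 and 57 in tenotomy. A label can therefore rest on few UMIs. In sham, Myh4 led in 37 barcodes, Myh1 in 7 and Myh2 in none, and 7 had no single leader. Tenotomy had 35 barcodes led by Myh4, 15 by Myh1, 12 by Myh2 and 6 with no single leader. Myh2 had 0 UMIs in sham fibres and 57 in tenotomy fibres (456.8 CPM), at least 30.1-fold higher, and the slow gene Myh7 was at 0 in both.

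The 12 barcodes led by Myh2 held 991 of the 1338 Csrp3 UMIs. Csrp3 stood at 31023 CPM in them, at 8963 CPM where Myh1 led and at 2045 CPM where Myh4 led. Over these 3 groups Cryab showed the same order, at 52248, 12831 and 9297 CPM, as did Ankrd2 (3694, 1780 and 221 CPM), Hspb7 (3694, 2701 and 1162 CPM) and Fhl1 (6198, 4911 and 883 CPM). Ankrd1 was at 1597 CPM under Myh2, 184 under Myh1 and 382.5 under Myh4, but single barcodes set these levels. One barcode held 35 of its 51 UMIs under Myh2 and another 23 of its 26 under Myh4, and without them the levels were 816 and 46.6 CPM. Likewise 1 barcode held 95 of the 139 Csrp3 UMIs under Myh4 (683 CPM without it) and 1 held 7 of the 15 of Ankrd2 (127 CPM without it). Under Myh2, 1 barcode held 447 of the 991 Csrp3 UMIs (27751 CPM without it) and 969 of the 1669 Cryab UMIs (35709 CPM without it). Both genes still stood highest under Myh2 without it. Ankrd23 was lowest under Myh2, with 595 CPM, against 1535 under Myh1 and 1192 under Myh4. In sham it was at 2540 CPM under Myh1, where 1 barcode held 43 of 51 UMIs (552 CPM without it), and at 729 under Myh4. The 6 tenotomy barcodes with no single leader had 13183 CPM of Cryab, above the level under Myh1.

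Among barcodes led by Myh4, which both libraries have in like number, 5 of the 7 genes were called higher, beside 11.4% of the 613 genes measured in these barcodes. Csrp3, Ankrd1 and Hspb7 were under 25 UMIs in sham and passed the minimum only through tenotomy, where they were high. This count, and the one without 1 barcode below, therefore carry no weight beside that share. The comparison was added after the values had been seen. Csrp3 had 30.6 CPM in sham and 2045 in tenotomy, a fold of 66.8 (27.9 to 209). Cryab was 6.81-fold (5.83 to 7.97), Hspb7 19.0-fold (9.79 to 41.1) and Fhl1 3.52-fold higher (2.32 to 5.36). Ankrd1 was 20.8-fold higher with sham taken at 3 counts, with a lower limit of 15.75. Ankrd2, with 15 UMIs in tenotomy and 0 in sham, was 12.0-fold higher in the same way (lower limit 8.61) but under the minimum of 25 UMIs. Ankrd23 was 1.63-fold higher there (1.22 to 2.19), under the 2-fold line. The count and the Csrp3 fold lean on 1 tenotomy barcode with 95 Csrp3 UMIs and 23 Ankrd1 UMIs. Without it Csrp3 was 22.3-fold higher (8.87 to 72.1), Ankrd1 kept 3 UMIs and was no longer measured, and 4 genes were called: Csrp3, Cryab (5.50-fold, 4.69 to 6.48), Hspb7 (16.5-fold, 8.41 to 36.0) and Fhl1 (2.84-fold, 1.83 to 4.44). On the sham side 4 of the 5 Csrp3 UMIs, 6 of the 10 Hspb7 UMIs and 15 of the 41 Fhl1 UMIs lay in 1 barcode each, and the levels without it were 6.32, 25.6 and 166 CPM. The folds of Csrp3, Cryab, Fhl1 and Hspb7 were smaller in these barcodes led by Myh4 than over all myofibre barcodes. The part of fibre type in the rest of the difference was not tested.

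**Figure D3:**
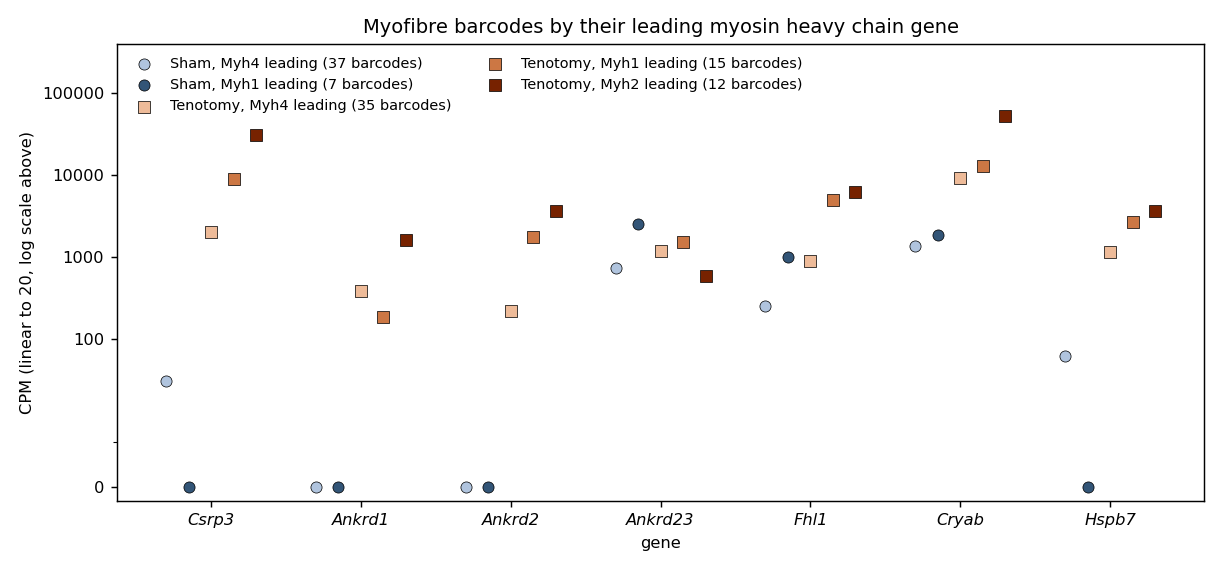
CPM of each gene (y axis, linear to 20, log scale above) in myofibre barcodes grouped by library and by their leading myosin heavy chain gene; each point is the summed value of a group, no sham barcode was led by Myh2, and barcodes with no single leader are not drawn. Among the drawn tenotomy groups 5 of the 7 genes stand highest where Myh2 and next where Myh1 led, and Ankrd23 is lowest under Myh2. Ankrd1 is highest under Myh2, also without the barcode that holds most of its UMIs there (816 CPM). Its order between Myh1 and Myh4 hangs on 1 barcode under Myh4.

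Genes that work with the members were described in the same barcodes from lists that hold none of the 7. Of 28 Z-disc and titin-linked genes, 19 were measured, 7 at least 2-fold higher in tenotomy and 2 lower (median log2 fold 0.26). Higher were Myoz2, the calsarcin of slow and oxidative fibres (10.1 to 393 CPM, 38.8-fold, 10.2 to 330), Flnc, the filamin bound by Hspb7 (10.1 to 200 CPM, 19.8-fold, 4.94 to 173), and Pdlim3, an alpha-actinin-associated protein (546 to 2068 CPM, 3.79-fold, 3.01 to 4.79). The sham values of Myoz2 and Flnc rest on 2 UMIs each, and both passed the minimum only through tenotomy, where they were high; the other 5 higher genes passed it in sham as well. Lower were Actn3, the alpha-actinin of fast fibres (4181 to 1507 CPM, 0.360-fold, 0.306 to 0.423), and Myoz1, the calsarcin of fast fibres (4328 to 1779 CPM, 0.411-fold, 0.353 to 0.477).

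Of 16 muscle chaperones 9 were measured, 5 of them higher and 0 lower (median log2 fold 1.36). Hspb1 went from 647 to 6219 CPM (9.61-fold, 7.96 to 11.7), Hspb6 from 642 to 2036 CPM (3.17-fold, 2.55 to 3.96) and Hspb3 from 55.6 to 208 CPM (3.75-fold, 1.79 to 8.40). All 3 are small heat shock proteins, as are Cryab and Hspb7. Hspb3 and Hspb2 passed the minimum only through tenotomy, and the other 3 higher chaperones in both libraries. Bag3, a partner of such chaperones, was at 50.6 and 48.1 CPM, on 10 and 6 UMIs. All 16 fast fibre genes were measured, 1 higher (Myh2) and 5 lower (median log2 fold -0.51). Myh2 passed the minimum only through tenotomy and 1 of the lower genes, Ampd1, only through sham. Lower were Pvalb, the calcium buffer of fast fibres (7437 to 2396 CPM, 0.322-fold, 0.284 to 0.365), Atp2a1, their calcium pump (10677 to 3534 CPM, 0.331-fold, 0.298 to 0.367), and Pygm, muscle glycogen phosphorylase (2497 to 745 CPM, 0.298-fold, 0.236 to 0.373). None of the 10 slow fibre genes was measured.

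Of 16 growth and regeneration genes 3 were measured in fibres and these 3 were higher, but Tnfrsf12a and Nmrk2 passed the minimum only through tenotomy, where they were high, so the direction of the count was largely set by the filter. Mustn1, a small nuclear protein of musculoskeletal tissue, went from 293 to 5906 CPM (20.1-fold, 15.4 to 26.8). Tnfrsf12a, the receptor of the cytokine TWEAK, went from 35.4 to 216 CPM (6.11-fold, 2.60 to 16.6), and Nmrk2, a nicotinamide riboside kinase of muscle, from 101 to 369 CPM (3.65-fold, 2.11 to 6.51). Of 15 denervation and atrophy genes 4 were measured, 1 of them higher, the metallothionein Mt2 (96.1 to 296.5 CPM, 3.09-fold, 1.73 to 5.68), which also passed only through tenotomy, and none lower. None of 13 targets of the mechanically regulated factor YAP was measured in fibres.

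Outside the fibres, 2 clusters were named muscle stem cell-like by the fixed markers, and they hold different states of the myogenic lineage. One, led by Gal, Asb5 and Erfe, had 497 sham and 109 tenotomy cells. The other, led by the differentiation genes Myog, Tnnt2 and Actc1, had 6 sham and 421 tenotomy cells, and its 10 leading genes include 5 of the 6 myocyte markers against 2 of the 10 stem cell markers. A sum over both clusters therefore sets mostly stem cells of sham against mostly differentiating cells of tenotomy, and the libraries are compared within the first cluster, a comparison added after the values had been seen. Its median depths were 5974 UMIs in sham and 4352 in tenotomy. Ankrd1, Fhl1 and Cryab were measured in it, which outside fibres also required 10% of the CPM over all kept cells. None of the 3 was called higher and 1, Ankrd1, was called lower, beside 7.08% and 3.72% of the 3009 genes measured there.

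Ankrd1 had 559 UMIs in the sham cells of this cluster, or 170 CPM (157 to 185), and 34 in the tenotomy cells, or 64.7 CPM (44.8 to 90.4), a fold of 0.380 (0.260 to 0.537). Unlike in control fibres, where it had no UMI, it was thus present in control cells of this cluster, in 131 of 497 of them (26.4%). Thinned to 1000 UMIs a cell, it was seen in 9.86% of sham cells (7.38 to 12.8) and 7.34% of tenotomy cells (3.22 to 13.95), shares whose intervals overlap. Fhl1 was at 42.7 and 70.4 CPM, a fold of 1.65 (1.12 to 2.39). Cryab was at 732 CPM (703 to 762) in sham and 411 CPM (358 to 470) in tenotomy, a fold of 0.561 (0.486 to 0.645) that is under the 2-fold call. The share of cells with a Cryab UMI ran the other way, at 57.1% and 63.3% unthinned and at 20.5% (17.1 to 24.4) and 29.4% (21.0 to 38.9) thinned. The thinned intervals overlap, so the higher sham level came without a larger share of sham cells. A single sham cell held 221 of the 2426 sham Cryab UMIs of both clusters (9.11%). Summed over both clusters, no member was called higher, beside 28.7% of 3485 genes. Ankrd1 then stood at 167 and 160 CPM, Fhl1 at 42.7 and 58.2 and Cryab at 724 and 459 CPM, and thinned cells with Cryab were 23.9% and 34.4%.

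Other chaperones were lower in the tenotomy cells of the first cluster as well. Of 9 measured chaperones 5 were at least 2-fold lower, beside the 3.72% of all genes given above, and none was higher. The heat-inducible Hspa1a went from 2156 to 350 CPM (0.162-fold, 0.140 to 0.188), Hspa1b from 1838 to 322 CPM (0.175-fold, 0.149 to 0.204) and Dnajb1, a co-chaperone, from 601 to 95.2 CPM (0.158-fold, 0.117 to 0.210). Hspa1a and Hspa1b are near-identical copies, so how reads were split between them is uncertain. Of 5 measured Z-disc and titin-linked genes 1, Pdlim7, was higher (41.1 to 83.7 CPM, 2.04-fold, 1.41 to 2.88), and it passed the minimum only through tenotomy. Of 6 growth and regeneration genes Igfbp5, a secreted binding protein of insulin-like growth factors, was higher (245 to 2314 CPM, 9.43-fold, 8.62 to 10.3) and Bcl3 lower (0.442-fold, 0.279 to 0.669). Bcl3 passed the minimum only through sham, where it was high. Of 5 YAP targets Ccn2 (89.6 to 421 CPM, 4.69-fold, 3.92 to 5.61) and Axl (2.32-fold, 1.59 to 3.33) were higher and Ccn1 lower (0.256-fold, 0.121 to 0.479). Axl passed only through tenotomy and Ccn1 only through sham, the library where each was high. Of 8 denervation and atrophy genes 1, Gadd45a, was lower (0.408-fold, 0.309 to 0.530), 3 slow fibre genes stayed within 2-fold, and no fast fibre gene was measured.

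Csrp3 had 1 UMI in each library in the first cluster. Over both clusters it had 1 UMI in sham and 148 in tenotomy (16.9 CPM, 14.3 to 19.9), a ratio of 56.7 with a counting interval of 10.0 to 2254 between these unlike sets of cells, and it stayed under the 50 CPM minimum. It was seen in 38 of 530 tenotomy cells (7.17%), which had a median of 13516.5 UMIs. Monocyte or macrophage-like cells, which should lack it, showed it in 82 of 3544 (2.31%) at a median of 5856 UMIs. These shares are therefore not at like depth. Thinned to 1000 UMIs, 3 of 521 tenotomy cells of both clusters showed Csrp3 (0.576%, 0.119 to 1.67). Thinned tenotomy neutrophil-like cells were at 1.13% (0.414 to 2.43) and blood endothelial-like cells at 0.663%. Mesenchymal progenitor-like cells were at 0.440%, and tenocyte-like and pericyte or smooth muscle-like cells at 0%. In the 180 tenotomy cells with at least 2 UMIs of the myocyte markers, such as Myog and the fusion gene Mymk, Csrp3 stood at 31.4 CPM (26.4 to 37.0). In the other 350 it was at 2.08 CPM (0.953 to 3.96), under the 5.14 CPM of immune cells. Ankrd1 was at 206.5 and 112 CPM in these 2 sets and Cryab at 635.5 and 278 CPM, while Fhl1 was at 59.4 and 56.9 CPM. The 18 tenotomy cells with 1% to 5% of UMIs in the 4 fibre genes had 324 CPM of Csrp3, 501 of Ankrd1 and 2234 of Cryab. Without them Csrp3 was at 4.75 CPM (3.40 to 6.47) in the other 512, a level whose interval includes that of immune cells. The sets differed in depth as well, with medians of 21957 UMIs in the 180 cells and 9037 in the 350. Hspb7 had 0 UMIs in sham and 18 in tenotomy cells (2.06 CPM), and Ankrd2 and Ankrd23 were under 4 CPM in both libraries.

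**Figure D4:**
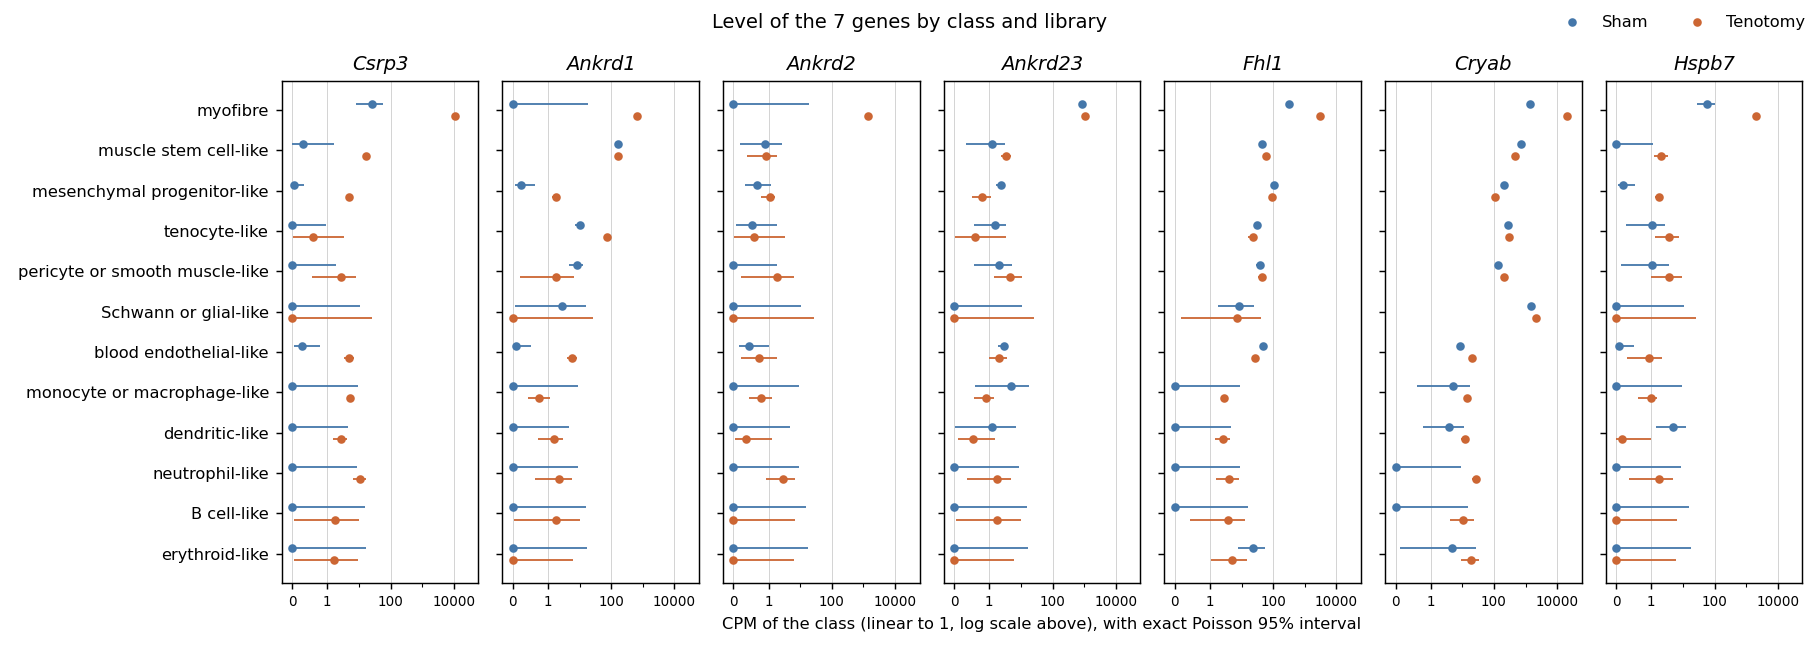
CPM of each gene (x axis, linear to 1, log scale above) in each named class, sham and tenotomy, with exact Poisson 95% intervals for counting error. Csrp3, Ankrd2, Ankrd23 and Hspb7 stand far higher in myofibre barcodes than elsewhere in tenotomy, while Ankrd1, Fhl1 and Cryab have levels of their own in several other classes.

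Fibre RNA set free during dissociation can reach droplets of every kind, and the 4 genes with few counts outside fibres, Csrp3, Ankrd2, Ankrd23 and Hspb7, were therefore set against the 4 rule genes there; where these UMIs came from was not tested. Outside the fibre and muscle stem classes, the named and unnamed classes together held 6979 sham and 10289 tenotomy cells. In them the 4 rule genes stood at 108 and 66.1 CPM. For every 1000 UMIs of the rule genes, tenotomy cells of these classes carried 79.9 UMIs of Csrp3 (72.5 to 88.0), against 81.0 (76.7 to 85.4) in the tenotomy myofibre barcodes and 83.0 (70.4 to 97.2) in immune classes alone. In tenotomy these 3 ratios of Csrp3 had overlapping intervals, which was not so for every gene, as given below. In sham the ratio differed, at 1.60 outside fibres (7 UMIs, 0.643 to 3.29) against 0.158 in myofibre barcodes (5 UMIs, 0.0512 to 0.368).

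Between the libraries, the ratio outside fibres went from 1.60 to 79.9 per 1000 for Csrp3, from 4.34 (2.61 to 6.78) to 16.3 (13.1 to 20.2) for Ankrd2 and from 4.34 (2.61 to 6.78) to 20.9 (17.2 to 25.2) for Hspb7. For Ankrd23 it went from 22.9 (18.6 to 27.8) to 14.4 (11.4 to 18.1). In the tenotomy myofibre barcodes Ankrd2 was at 10.5 (8.97 to 12.15) and Ankrd23 at 7.99 (6.68 to 9.47). Both intervals lay under those of tenotomy cells outside fibres. Hspb7 was at 15.6 (13.8 to 17.6) in these barcodes, an interval that overlapped the one outside. Sham ratios outside fibres were higher than in sham myofibre barcodes for all 4 genes; Ankrd2 had 0 UMIs in the latter and Ankrd23 was at 5.51 per 1000 (4.73 to 6.39). The sham ratios outside fibres therefore do not read those of the sham myofibre barcodes, and these values are no replicate of the fibre comparison.

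**Figure D5:**
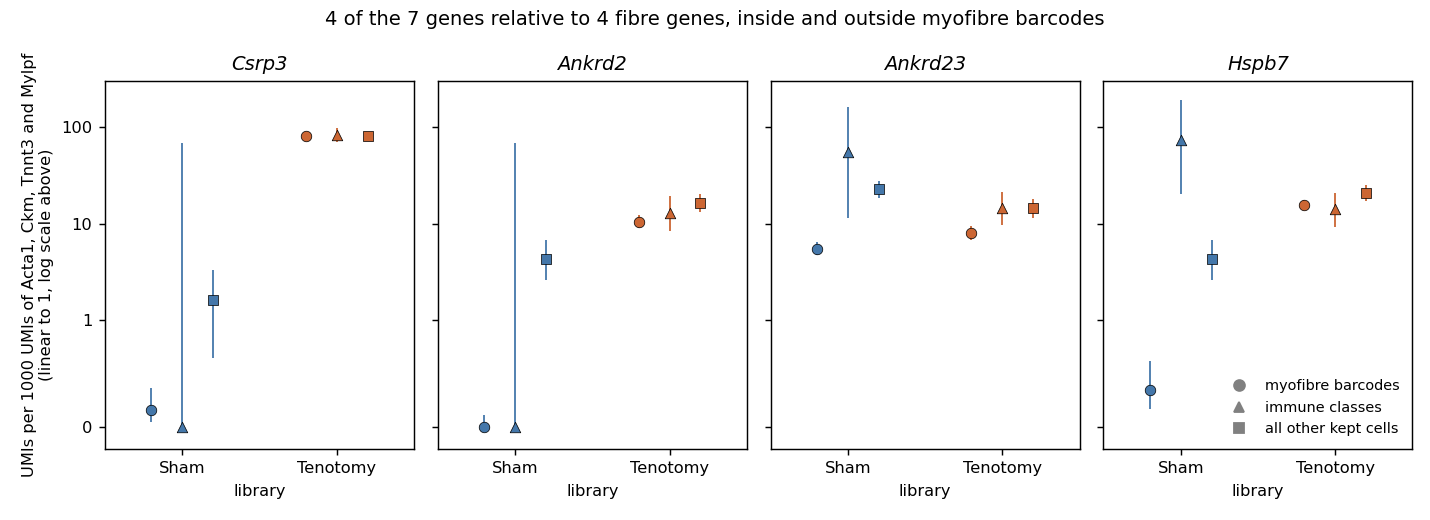
UMIs of Csrp3, Ankrd2, Ankrd23 and Hspb7 per 1000 UMIs of Acta1, Ckm, Tnnt3 and Mylpf (y axis, linear to 1, log scale above) in myofibre barcodes, immune classes and all other kept cells (immune classes included) of each library, with exact Poisson 95% intervals of the gene's count. The 3 tenotomy values of Csrp3 coincide near 80, and the sham immune values rest on 54 rule-gene UMIs in 186 cells.

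Ankrd1, Fhl1 and Cryab were also present in cells outside the muscle lineage, at levels above those in immune cells. Ankrd1 in tenocyte-like cells stood at 10.3 CPM (7.38 to 14.1) in the sham and 74.6 CPM (62.2 to 88.8) in the tenotomy library, a fold of 7.23 (5.03 to 10.6), beside 6.09% of the 3119 genes measured in this class at or above 2-fold. It was seen in 16 of 384 and 27 of 207 cells (4.17% and 13.0%), with median depths of 9643 and 7206 UMIs, against 0.451% of tenotomy monocyte or macrophage-like cells. One tenotomy cell held 23.0% of the UMIs and 1 sham cell 27.5%, and the levels without those cells were 57.8 and 7.53 CPM. In blood endothelial-like cells Ankrd1 was at 0.091 and 5.91 CPM, on 1 and 32 UMIs, under the minimum.

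Cryab was at 1457 CPM (1334 to 1589) in the 66 sham Schwann or glial-like cells and at 2076 CPM (1844 to 2329) in the 36 of tenotomy, too few for a fold. Mesenchymal progenitor-like cells had 216 CPM of it in sham and 112 in tenotomy, a fold of 0.520 (0.496 to 0.545). Those cells were mostly of different clusters, 1269 of 1914 sham cells in one led by Smoc2, Gsn and Abca8a and 1490 of 1852 tenotomy cells in one led by Postn, Tnc and Cthrc1. Pericyte or smooth muscle-like cells had 136 and 204 CPM of Cryab, a fold of 1.50 (1.25 to 1.80), and tenocyte-like cells had 271 and 293 CPM, a fold of 1.08 (0.969 to 1.20). The level in tenotomy immune cells, 14.5 CPM, is given for comparison.

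Fhl1 was at 105 (sham) and 90.6 CPM (tenotomy) in mesenchymal progenitor-like cells, a fold of 0.863 (0.813 to 0.917). In blood endothelial-like cells it was at 46.5 and 27.1 CPM (0.584-fold, 0.482 to 0.703), just under the minimum, and most sham cells there (2364 of 2758) were in a cluster led by Timp4, Iigp1 and Aqp1 while most tenotomy cells (1065 of 1261) were in one led by Selp, Plvap and Tmem252. Immune cells of tenotomy had 2.89 CPM. The order of Fhl1 levels in tenotomy ran from fibres (3037 CPM) to mesenchymal (90.6), muscle stem (58.2), pericyte or smooth muscle (45.8, 34.1 to 60.2), endothelial (27.1, 22.9 to 31.9) and tenocyte-like cells (23.1, 16.4 to 31.6). The intervals of pericyte or smooth muscle cells and muscle stem cells overlapped, as did those of endothelial and tenocyte-like cells.

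Across 33 sums of a class or unnamed cluster in 1 library, each of at least 20 cells, the genes whose log2(CPM + 1) pattern was most like each member's were listed from 7526 eligible genes. The sums share libraries, free RNA and differ in depth, so the correlations are descriptions. Csrp3 was most like Myoz2 (Pearson r = 0.867), Ankrd2 (0.865) and Hspb3 (0.842). Ankrd2 was most like Myh2 (0.970), then Csrp3 (0.865) and Myoz2 (0.854), and Hspb7 most like Myoz2 (0.937), Ppp1r27 (0.882) and Hspb3 (0.881). Ankrd23 lay with Myoz1 (0.947), Abra (0.942) and Myot (0.936). Fhl1 lay with Mustn1 (0.896), Nexn (0.880) and Rilpl1 (0.856), and Cryab with Hspb2 (0.932), Ndrg2 (0.890) and Fxyd1 (0.886). Nearest to Ankrd1 were Myod1 (0.840), Chrna1 (0.832) and Six4 (0.784), genes of the muscle lineage. Between members the correlation ran from 0.371 (Ankrd1 and Ankrd23) to 0.865 (Csrp3 and Ankrd2).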

How the data were processed

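The deposited files hold raw counts (UMIs per gene and barcode, not normalized); the submitters' processing notes name Cell Ranger 4.0.0 and mm10, and other steps are not given in the sources used here. Barcodes with at least 300 genes, 500 UMIs and at most 10% mitochondrial UMIs were kept, and doublets were removed with scrublet in scanpy 1.11.5 (threshold 0.23 in both libraries, 203 sham and 346 tenotomy barcodes). Both libraries were clustered together (26 clusters, 5 unnamed) and classes were named from marker lists; they are rebuilt, not the authors'. Gene symbols matched 32158 of 32285 identifiers. UMIs were summed per class and library and scaled to CPM. Levels have exact Poisson and folds exact conditional binomial 95% intervals. For a fold, 0 was taken at 3 counts. Folds so taken are called bounds, although their counting interval reaches lower. Named genes were the 7 members, up to 3 higher and 3 lower genes per related list ranked by the interval bound nearest 1, and 3 like genes per member; genes given for fibre type, RNA quality and cell identity were chosen after values were seen. The members and lists were chosen with earlier results of these data known. The fold method was tested on simulated Poisson counts only. These had no variation between barcodes or libraries, so the test does not cover such variation in the real data. Coordinates come from GENCODE on mm10.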

Additional observations from a re-analysis of the deposited data

Results flagged for a closer look

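Cryab was 14.9-fold higher in tenotomy in myofibre barcodes but had folds of 0.634 in muscle stem cell-like and 0.520 in mesenchymal progenitor-like cells, so the same gene lay on opposite sides of no difference in 2 kinds of cell. Fhl1 likewise was 9.54-fold higher in myofibre barcodes with a fold of 0.863 in mesenchymal progenitor-like cells. The muscle stem cell-like sum sets mostly stem cells of sham against mostly differentiating cells of tenotomy, and within their shared cluster the Cryab fold was 0.561. With 1 library a group, neither difference between classes was tested.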

How the results depend on the processing

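The count of 6 members higher in myofibre barcodes stayed between 4 and 6 under 11 of 12 alternatives, and fell to 3 with fibres taken from 20% of UMIs, which left 4 sham and 3 tenotomy barcodes. Some alternatives could hardly change it. Dividing by the median fold or by rule-gene UMIs rescales all folds by a constant. The mean over barcodes counted Ankrd1 and Ankrd2 as higher by construction, because they were at 0 in sham. The count of 0 lower members became 1, Ankrd23, with barcodes taken from 2% of UMIs, which also took in muscle stem cell-like cells. The count of 0 members higher in muscle stem cell-like cells was 0 in all 11. Of 148 single folds under alternatives, 84 stayed within the counting interval, 64 moved and none of the called folds reversed. Csrp3 in fibres ranged from 22.3-fold (barcodes led by Myh4, less 1) to 514-fold (per rule-gene UMI), Cryab from 5.50 to 18.1, Hspb7 from 7.48 to 45.8, Fhl1 from 2.84 to 15.4, and the bounds of Ankrd1 from 2.49 to 53.1 and of Ankrd2 from 9.29 to 111. In muscle stem cell-like cells Cryab ranged from 0.0945 to 0.775 and Csrp3 from 1.61 to 164.5. The lowest Cryab value subtracts free RNA scaled to rule genes that these cells also make, so it is an underestimate. For Csrp3 and Fhl1 that alternative left nothing above 0 in tenotomy, so no fold was formed. Fhl1 there went from 0.866 to 1.65, and in mesenchymal progenitor-like cells it was 1.03 after thinning. Ankrd1 in tenocyte-like cells was 3.78-fold after thinning, which rests on few UMIs. Another draw at the same depth left 3 in sham and 5 in tenotomy. Few fibre UMIs limit low genes: Ankrd1 and Ankrd2 folds take 3 counts in place of 0 in sham. No paired analysis was possible because each group is 1 pooled library.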
